A study of Mus musculus with 6 samples.

Results

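Fibroblast growth factors (FGFs), their receptors and the genes that damp the signal were followed in cultured bone marrow (BM) cells. The set comprised 42 of the 56980 genes in the deposited counts, chosen by name: 15 paracrine FGF ligands, 3 endocrine FGFs, 4 intracellular FGF homologs, 7 receptors and co-receptors, 2 receptor adaptors, 9 feedback regulators and 2 transcription factors. The rule for membership was the gene symbol. *Spry3* was not analysed here.

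Paracrine FGFs bind heparan sulphate and cell-surface tyrosine kinase receptors, while endocrine FGFs need a klotho co-receptor. Bound receptors signal through FRS2-type adaptors to the Ras-ERK kinase cascade, which in turn induces its own brakes: Sprouty and Spred proteins, which act on the Ras step, and dual-specificity phosphatases (DUSPs), which remove phosphate from ERK. The PEA3-group factors ETV4 and ETV5 are commonly used as readouts of this cascade. In bone, FGF2, FGF18 and the receptors FGFR1 to FGFR3 are known regulators of skeletal precursor cells, and FGF23 is a hormone of osteocytes.

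All cells came from female mice that underwent bilateral OVX at 8 weeks of age, had their own gut flora depleted with antibiotics, and then received FMT for 8 weeks. Donors were OVX mice that were either sedentary (TranspCtrl group, 3 samples) or had run on a treadmill (TranspExer group, 3 samples). The comparison asks what differed in the recipients' MSCs according to the donor's exercise. Flushed marrow was cultured for 7 days with washes and without a described sorting step, no strain was given in the sources used here, and whether each sample came from 1 mouse or from pooled mice was not stated, so p-values measure only the spread between these samples. RNA was sequenced, and the authors deposited estimated counts per gene.

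Total counts ranged from 17647682 to 21319228 per sample. In log2 CPM (counts relative to library size, scaled by edgeR's TMM factors), TranspCtrl replicate 1 lay at a distance of 60.2 to 62.8 from the other TranspCtrl samples, which were 37.0 apart. TranspExer samples were 42.8 to 43.9 apart, and samples of different groups 82.7 to 110. Values that moved most without TranspCtrl replicate 1 are therefore also given without it. The stromal genes of the labelled cell type were present, with *Pdgfra* (a stromal receptor) at 112 ± 3.96 CPM in TranspCtrl and 55.8 ± 0.652 CPM in TranspExer (SD, n = 3). The leukocyte gene *Ptprc* was present as well, at 281 ± 11.4 and 294 ± 8.44 CPM (SD, n = 3), so the cultures also held RNA of blood cells. Of 11 stromal markers, 2 rose and 7 fell, and the summed level was 12223 to 19953 CPM in TranspCtrl and 13019 to 14242 CPM in TranspExer. Of 10 endothelial markers, all 10 rose, from a summed 218 to 260 CPM to 700 to 757 CPM. In such bulk RNA, fewer cells of a type and less RNA per cell cannot be told apart.

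Of the 42 genes, 6 had no count in any sample and 14 had counts too low for the filter of edgeR (filterByExpr), which left 22 to be tested among 15190 genes. A gene was called a DEG at an adjusted p-value under 0.05 with a fold change of at least 2, where p came from the quasi-likelihood test of edgeR and the Benjamini-Hochberg adjustment ran over all 15190 genes. *Etv4*, *Spry4*, *Spry2* and *Fgf1* were upregulated DEGs in TranspExer, which is 18.2% of the tested members beside 3.5% of all tested genes. No member was a downregulated DEG, beside 5.28% of all tested genes. The lowest log2 fold change of a tested member was -0.90, short of the fold threshold, so an unadjusted p could not change that count. It was also 0 with DESeq2. The count was 1 (*Fgf21*) when every gene with at least 1 count was tested and 1 (*Fgf21*) without TranspCtrl replicate 3. At the adjusted p-value alone, 7 members rose and 2 fell, or 31.8% and 9.09% of those tested, beside 16.6% and 15.5% of all tested genes. With upper-quartile scaling or scaling by library size only, 7 rose and 4 fell, the other two being *Fgf11* and *Fgfr1*, beside 13.5% and 19.1% of all tested genes with the first scaling and 13.3% and 19.5% with the second. The 7 that rose became 4 without TranspExer replicate 2 and 4 without TranspExer replicate 3, where 8.42% and 8.55% of all genes tested in those fits rose. The groups did not overlap for 12 members that were higher in TranspExer and for 4 that were lower, beside 27.2% and 25.1% of all tested genes. The median log2 fold change of the 22 was 0.33 and that of all tested genes was -0.02. Members that rose and members that fell were found among both the ligands and the feedback regulators.

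**Figure D1:**
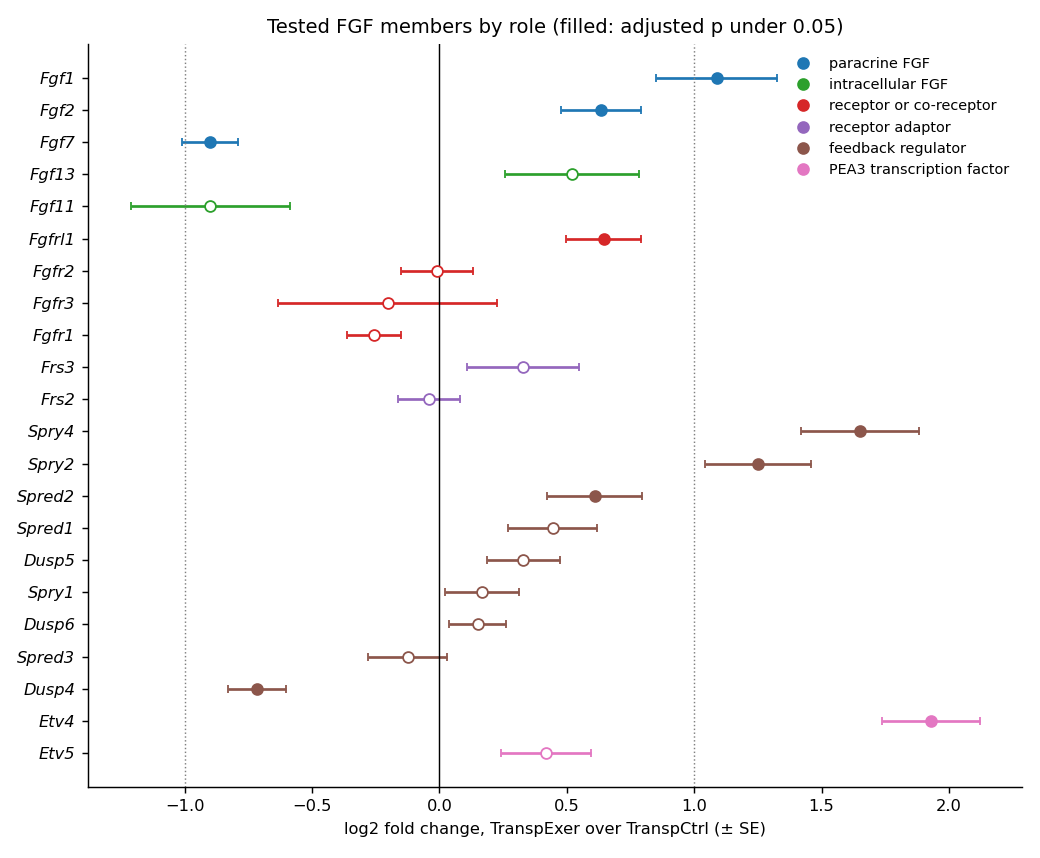
Log2 fold change of TranspExer over TranspCtrl (x axis) for the 22 tested FGF genes, coloured by role, with bars for the standard error. Filled points had an adjusted p-value under 0.05 (edgeR), and dotted lines mark a fold change of 2. *Etv4* had the highest value, 1.93, and *Fgf7* and *Fgf11* the lowest, -0.90 each.

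Levels between genes were compared per length, as TPM (counts divided by gene length and then scaled to a fixed total per sample), computed with the gene lengths the file lists. The levels of the feedback regulators were spread over most of the range, and every tested ligand but *Fgf7* stood near the bottom. *Dusp6*, an ERK phosphatase, was highest in both groups, with 87.4 ± 13.1 TPM in TranspCtrl and 94.7 ± 2.03 TPM in TranspExer (SD, n = 3). *Spred1* had the next highest mean in both groups, at 47.1 ± 12.4 and 62.7 ± 3.06 TPM (SD, n = 3). Next came *Fgf7*, *Fgfr1* and *Etv5* in TranspCtrl, and *Etv5*, *Spry1* and *Fgfr1* in TranspExer. In TranspCtrl, *Spred1*, *Fgf7* (43.2 ± 6.29 TPM) and *Fgfr1* (41.7 ± 6.13 TPM, both SD, n = 3) did not differ beyond their spread. *Fgfr1* was the receptor at the highest level, above *Fgfr2* at 16.0 ± 3.03 TPM and *Fgfr3* at 0.294 ± 0.067 TPM in TranspCtrl (SD, n = 3). *Fgfr4* had no count.

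**Figure D2:**
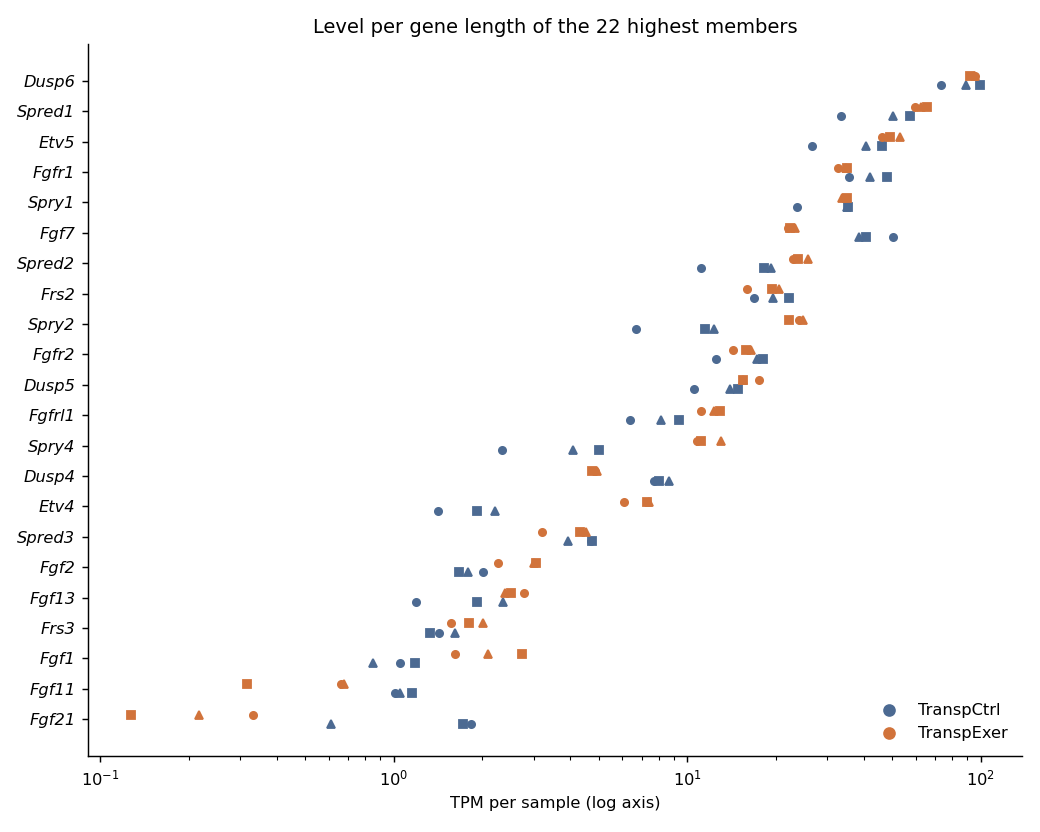
Level per gene length (TPM, log axis) of the 22 highest FGF genes in each of 3 TranspCtrl (blue) and 3 TranspExer (orange) samples, where circles, squares and triangles stand for replicates 1, 2 and 3. *Dusp6* was highest, with group means of 87.4 and 94.7 TPM, and genes are ordered by the mean of all 6 samples.

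Among the ligands, *Fgf7* fell and *Fgf1* and *Fgf2* rose in TranspExer. *Fgf7* (ENSMUSG00000027208, GRCm38 chromosome 2, 126034658 to 126091185), a keratinocyte growth factor that mesenchymal cells make for epithelial receptors, was the ligand at the highest level. It had 64.2, 51.1 and 49.5 CPM in TranspCtrl replicates 1, 2 and 3 and 29.2, 28.8 and 30.1 CPM in TranspExer replicates 1, 2 and 3. The lowest TranspCtrl sample was well above the highest TranspExer sample, and the TranspExer samples were nearly level. The log2 fold change was -0.90 (standard error, SE, 0.11 and edgeR adjusted p = 0.000884), a level 1.87-fold lower, which is short of the fold threshold. Without TranspCtrl replicate 1, the highest of all, it was -0.78 (edgeR adjusted p = 8.73e-07). Stromal markers that fell alongside are given above, and their part in the fall of *Fgf7* was not tested.

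*Fgf1* (ENSMUSG00000036585, chromosome 18), the ligand that binds all FGF receptors, had 2.00, 2.21 and 1.63 CPM in TranspCtrl and 3.19, 5.23 and 4.02 CPM in TranspExer replicates 1, 2 and 3. These correspond to 35 to 43 counts and 61 to 90 counts, and the groups did not overlap. Its log2 fold change was 1.09 (SE 0.24 and edgeR adjusted p = 0.0112), or 2.13-fold. It was below the fold threshold without TranspCtrl replicate 3 (0.97, adjusted p = 0.0376) and without TranspExer replicate 2, its highest sample (0.88, adjusted p = 0.049).

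*Fgf2* (ENSMUSG00000037225, chromosome 3, 37348346 to 37410108), a mitogen of stromal cells, had 5.76, 4.67 and 5.16 CPM in TranspCtrl and 6.75, 8.83 and 8.64 CPM in TranspExer replicates 1, 2 and 3. The groups did not overlap, though TranspExer replicate 1 was close to TranspCtrl replicate 1. This gave a log2 fold change of 0.63 (SE 0.16 and edgeR adjusted p = 0.0186). The call was lost, with adjusted p-values from 0.0505 to 0.0847, without any one of TranspCtrl replicates 2 and 3 and TranspExer replicates 2 and 3. The exons of *Fgf2* overlap those of *Nudt6* on the opposite strand over 640 bases. *Nudt6* had 1.75 ± 0.386 CPM in TranspCtrl and 1.28 ± 0.266 CPM in TranspExer (SD, n = 3), and how reads of the overlap were assigned was not given in the sources used here.

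Within each sample, the balance between these ligands shifted, a comparison chosen after the values were seen. *Fgf7* was 16.4, 14.3 and 14.5 times the summed TPM of *Fgf1* and *Fgf2* in TranspCtrl replicates 1, 2 and 3. In TranspExer replicates 1, 2 and 3 it was 5.67, 3.87 and 4.58 times that sum. *Fgf7* remained the ligand with the highest TPM in every sample.

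The other 12 paracrine ligands were not tested. *Fgf4*, *Fgf8*, *Fgf16* and *Fgf20* had no count in any sample, where 3 counts, the limit that a count of 0 allows, correspond to 0.139 to 0.174 CPM (counting error only). *Fgf3* reached 9 counts, *Fgf10* reached 5 and *Fgf22* reached 4. *Fgf18*, a ligand of growing bone, had at most 2 counts, as had *Fgf5* and *Fgf17*, and *Fgf6* and *Fgf9* had at most 1. *Fgf10*, a ligand of mesenchyme that acts on epithelium, was counted 1, 0 and 0 times in the TranspCtrl samples and 5, 1 and 2 times in the TranspExer samples. When every gene with at least 1 count was tested, its adjusted p-value from edgeR was 0.216, and none of the paracrine ligands left out by the filter passed the threshold.

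None of the endocrine FGFs passed the filter. *Fgf15*, the hormone by which the ileum lowers hepatic bile acid synthesis, had no count. *Fgf23*, the phosphate hormone, was counted 3, 4 and 2 times in the TranspCtrl samples and 0, 0 and 7 times in the TranspExer samples, so the groups overlapped. *Fgf21*, a metabolic hormone induced by fasting and cell stress, was counted 17, 15 and 6 times in TranspCtrl replicates 1, 2 and 3 and 3, 1 and 2 times in TranspExer replicates 1, 2 and 3. Every TranspExer sample was below every TranspCtrl sample. The summed counts were 38 and 6. Relative to the TMM-scaled library sizes, their ratio, TranspCtrl over TranspExer, was 5.82 (exact Poisson interval at 95% 2.44 to 16.8, counting error only). When every gene with at least 1 count was tested, the log2 fold change of *Fgf21* was -2.50 (edgeR adjusted p = 0.0115). Their co-receptor genes were nearly silent, with at most 3 counts of *Klb*, the partner of FGF21 and FGF15, and at most 1 count of *Kl*, the partner of FGF23.

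The intracellular homologs *Fgf11* to *Fgf14* are not secreted, and are known as partners of sodium channels. *Fgf11* had 1.46, 1.64 and 1.53 CPM in TranspCtrl and 0.994, 0.465 and 0.993 CPM in TranspExer, a log2 fold change of -0.90 (SE 0.31 and edgeR adjusted p = 0.0591). Its groups did not overlap, and it passed the threshold with upper-quartile scaling (adjusted p = 0.0447), with scaling by library size only (0.0435) and with a filter of 1 CPM in 3 samples (0.0472). *Fgf13* had a log2 fold change of 0.52 (SE 0.26 and edgeR adjusted p = 0.163), or 0.29 without TranspCtrl replicate 1 (adjusted p = 0.303). *Fgf12* and *Fgf14* had at most 2 counts.

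Among the receptors, *Fgfrl1* alone passed the test. *Fgfrl1* (ENSMUSG00000008090, chromosome 5, 108692382 to 108706924) encodes a receptor that binds FGFs and lacks the tyrosine kinase domain. It had 7.08, 10.2 and 9.11 CPM in TranspCtrl and 12.9, 14.5 and 13.9 CPM in TranspExer replicates 1, 2 and 3, so all TranspExer samples were above all TranspCtrl samples. On the log2 scale the difference, TranspExer minus TranspCtrl, was 0.65 (SE 0.15 and edgeR adjusted p = 0.0136), and without TranspCtrl replicate 1 it was 0.51 (adjusted p = 0.00252). The call was lost without TranspExer replicate 2 (adjusted p = 0.0592) or replicate 3 (0.055).

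*Fgfr1* (ENSMUSG00000031565), the main signalling receptor by level, had 85.5, 113 and 102 CPM in TranspCtrl and 82.0, 85.0 and 84.4 CPM in TranspExer replicates 1, 2 and 3. TranspCtrl replicate 1 lay close to the TranspExer samples and the other TranspCtrl samples above them. The log2 fold change was -0.26 (SE 0.11 and edgeR adjusted p = 0.0992). Without TranspCtrl replicate 1 it was -0.36 (adjusted p = 0.000387), and with the other scalings it passed as well (adjusted p = 0.0246 and 0.0225). *Fgfr2* had a log2 fold change of -0.01 (SE 0.14 and edgeR adjusted p = 0.964) and *Fgfr3*, with 4 to 14 counts per sample, one of -0.20 (SE 0.43 and edgeR adjusted p = 0.736), which ranged from -0.53 to 0.11 with 1 sample left out. Without TranspCtrl replicate 1, *Fgfr2* was at -0.16 (adjusted p = 0.126). Counts per gene do not tell the epithelial and mesenchymal splice forms of *Fgfr1* and *Fgfr2* apart. The annotated exons of *Fgfr2* share 314 bases with those of *Ctbp2* on the same strand, so reads there could belong to either gene.

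The adaptor genes did not pass the test. *Frs2*, which links the receptors to Ras, had 59.8 ± 7.76 CPM in TranspCtrl and 58.2 ± 6.54 CPM in TranspExer (SD, n = 3), a log2 fold change of -0.04 (SE 0.12 and edgeR adjusted p = 0.818), or -0.14 without TranspCtrl replicate 1 (adjusted p = 0.227). *Frs3* was low, with 26 to 42 counts per sample, and had a log2 fold change of 0.33 (SE 0.22 and edgeR adjusted p = 0.281).

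All 9 feedback regulators passed the filter, and they did not move together. *Spry4*, *Spry2* and *Spred2* rose, *Dusp4* fell, and *Spry1*, *Spred1*, *Spred3*, *Dusp5* and *Dusp6* did not pass the test. Sprouty proteins are membrane-bound inhibitors of receptor tyrosine kinase signalling to Ras and ERK.

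*Spry4* (ENSMUSG00000024427, chromosome 18) had 5.32, 11.1 and 9.35 CPM in TranspCtrl and 25.6, 25.5 and 29.9 CPM in TranspExer replicates 1, 2 and 3. The lowest TranspExer sample was above the highest TranspCtrl sample by more than the spread within either group. Its log2 fold change was 1.65 (SE 0.23 and edgeR adjusted p = 0.0017), or 3.14-fold. Without TranspCtrl replicate 1, the lowest sample, it was 1.40 (adjusted p = 6.86e-07).

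*Spry2* (ENSMUSG00000022114, chromosome 14, 105891947 to 105896819) had 6.64, 11.3 and 12.4 CPM in TranspCtrl and 24.8, 22.3 and 24.9 CPM in TranspExer replicates 1, 2 and 3. TranspCtrl replicate 1 was again lowest, and the groups were well apart. This gave a log2 fold change of 1.25 (SE 0.21 and edgeR adjusted p = 0.00348), or 2.38-fold, and without TranspCtrl replicate 1 it was 1.02 (adjusted p = 3.14e-06).

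*Spry1*, the Sprouty gene at the highest level in TranspCtrl, had 28.1, 41.1 and 41.9 CPM in TranspCtrl and 42.6, 42.0 and 40.2 CPM in TranspExer. Apart from TranspCtrl replicate 1, all samples were within 40.2 to 42.6 CPM. On the log2 scale the difference, TranspExer minus TranspCtrl, was 0.17 (SE 0.15 and edgeR adjusted p = 0.406), and 0.00 without TranspCtrl replicate 1. Per length, *Spry1* was 2.63, 2.13 and 2.14 times *Spry2* and *Spry4* together in TranspCtrl, and 0.994, 1.05 and 0.888 times in TranspExer.

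Spred proteins, relatives of Sprouty, hold Ras inactive together with neurofibromin. *Spred2* (ENSMUSG00000045671, chromosome 11, 19924375 to 20024026) had 23.6, 38.2 and 41.2 CPM in TranspCtrl and 50.6, 51.0 and 55.6 CPM in TranspExer replicates 1, 2 and 3, without overlap. The log2 fold change was 0.61 (SE 0.19 and edgeR adjusted p = 0.0389). It was 0.40 without TranspCtrl replicate 1 (adjusted p = 0.000474), and the call was lost without any one of TranspExer replicates 1, 2 and 3 (adjusted p = 0.0918, 0.096 and 0.128).

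*Spred1* had 95.9, 162 and 146 CPM in TranspCtrl and 178, 190 and 182 CPM in TranspExer, a log2 fold change of 0.44 (SE 0.17 and edgeR adjusted p = 0.0849). Its groups did not overlap, and it passed without TranspCtrl replicate 1 (0.25, adjusted p = 0.00485) and without TranspCtrl replicate 2 (0.60, adjusted p = 0.037). It also passed with DESeq2 (adjusted p = 0.0499), with every gene of at least 1 count tested (0.0304) and with replicate numbers fitted as blocks (0.0417). *Spred3* had a log2 fold change of -0.12 (SE 0.15 and edgeR adjusted p = 0.563), or -0.08 without TranspCtrl replicate 1 (adjusted p = 0.713).

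The phosphatases differed among themselves. *Dusp4* (ENSMUSG00000031530, chromosome 8, 34807297 to 34819894), a nuclear phosphatase of ERK and related kinases, had 10.1, 10.3 and 11.4 CPM in TranspCtrl and 6.59, 6.28 and 6.51 CPM in TranspExer replicates 1, 2 and 3. The groups were far apart against a spread of 0.733 CPM in TranspCtrl and 0.163 CPM in TranspExer (SD, n = 3). Its log2 fold change was -0.71 (SE 0.11 and edgeR adjusted p = 0.00296), a level 1.64-fold lower, and the adjusted p-value was at most 0.0196 with any sample left out.

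*Dusp6*, the cytoplasmic ERK phosphatase, had 98.0, 131 and 120 CPM in TranspCtrl and 133, 124 and 129 CPM in TranspExer. The groups overlapped, and the log2 fold change was 0.15 (SE 0.11 and edgeR adjusted p = 0.326), or 0.04 without TranspCtrl replicate 1 (adjusted p = 0.615). *Dusp5*, a nuclear ERK phosphatase, had a log2 fold change of 0.33 (SE 0.14 and edgeR adjusted p = 0.113), or 0.19 without that sample (adjusted p = 0.133). Per length, *Dusp6* was 9.55, 12.4 and 10.3 times *Dusp4* in TranspCtrl and 19.8, 19.4 and 19.4 times in TranspExer.

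Of the PEA3-group factors, *Etv4* rose and *Etv5* did not pass the test. *Etv4* (ENSMUSG00000017724, chromosome 11, 101769742 to 101785371) had 1.61, 2.16 and 2.56 CPM in TranspCtrl and 7.22, 8.43 and 8.54 CPM in TranspExer replicates 1, 2 and 3. These were 33 to 55 counts and 138 to 172 counts, and the groups were far apart. This gave a log2 fold change of 1.93 (SE 0.19 and edgeR adjusted p = 0.000358), or 3.81-fold, the highest among the tested members. It was 1.77 without TranspCtrl replicate 1 (adjusted p = 3.49e-06), and *Etv4* was the only member that passed when the fold change of 2 was tested within the model.

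*Etv5* (ENSMUSG00000013089) had 47.9, 81.5 and 74.2 CPM in TranspCtrl and 86.5, 89.0 and 96.5 CPM in TranspExer replicates 1, 2 and 3. The groups did not overlap, and TranspCtrl replicate 1 was far below the rest. On the log2 scale the difference, TranspExer minus TranspCtrl, was 0.42 (SE 0.18 and edgeR adjusted p = 0.106). It was 0.22 (adjusted p = 0.0168) without TranspCtrl replicate 1 and 0.57 (adjusted p = 0.0471) without TranspCtrl replicate 2. It also passed with every gene of at least 1 count tested (adjusted p = 0.045) and with replicate numbers fitted as blocks (0.0487). Per length, *Etv5* exceeded *Etv4* by 18.9, 24.0 and 18.4 times in TranspCtrl replicates 1, 2 and 3 and by 7.60, 6.71 and 7.17 times in TranspExer.

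**Figure D3:**
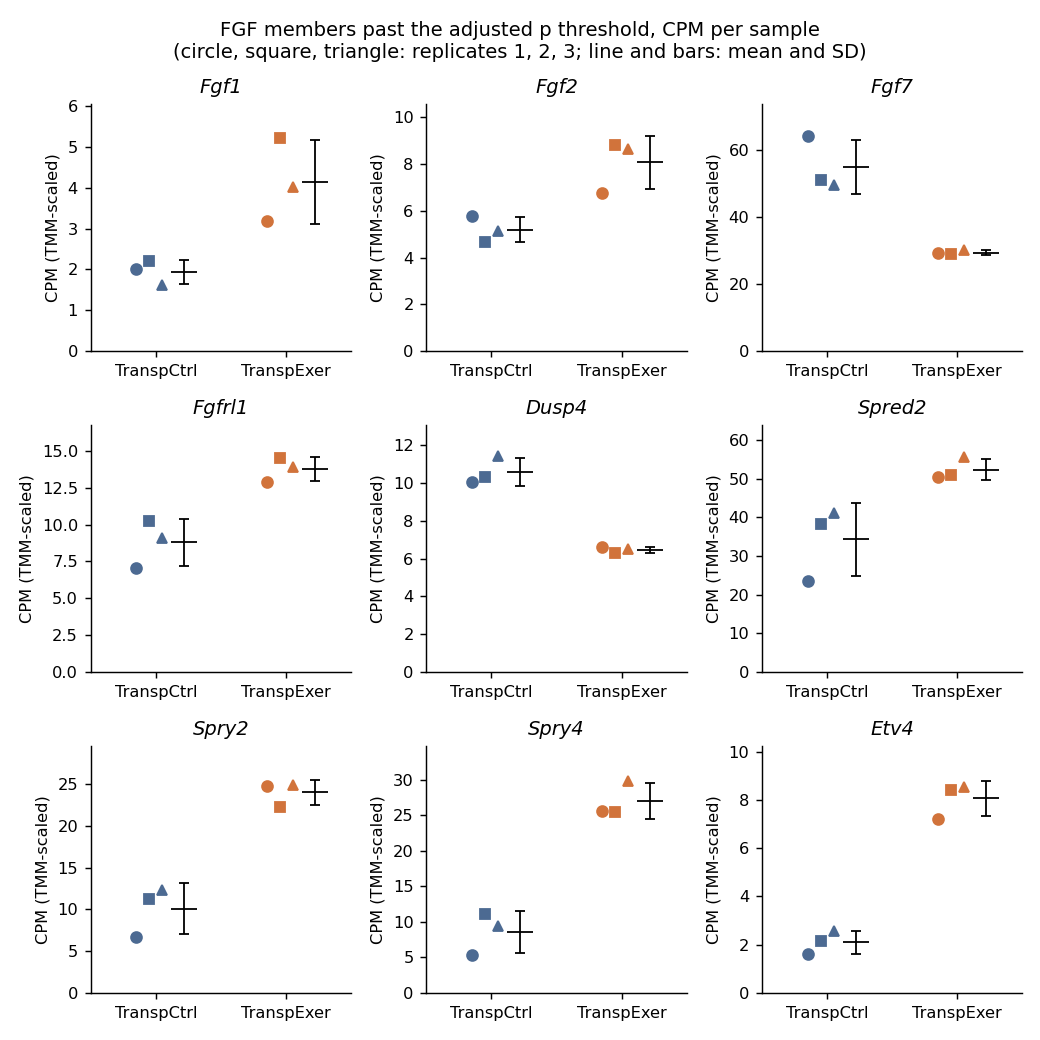
CPM (TMM-scaled, y axes from 0) in each sample for the 9 members with an adjusted p-value under 0.05, with circles, squares and triangles for replicates 1, 2 and 3 and the mean and SD beside them (n = 3). The groups did not overlap for any of the 9, which choosing them by p-value in these same samples makes likely. *Fgf7* and *Dusp4* were lower in TranspExer, and TranspCtrl replicate 1 was the lowest sample for *Spry2*, *Spry4*, *Spred2*, *Etv4* and *Fgfrl1*.

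TranspCtrl replicate 1 was the lowest of the TranspCtrl samples for 16 of the 22 tested members, or 72.7%, beside 45.1% of all tested genes. Among the feedback regulators it was lowest for 8 of 9, with *Spred3* as the exception. Without it, the fold changes of *Etv4*, *Spry4*, *Spry2*, *Spred2*, *Spred1* and *Etv5* were all smaller, and all had an adjusted p-value under 0.05. Without it, 9 members rose and 3 fell at the adjusted p-value threshold, beside 22.1% and 19.6% of all genes tested in the same fit. The third member that fell was *Fgfr1*.

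**Figure D4:**
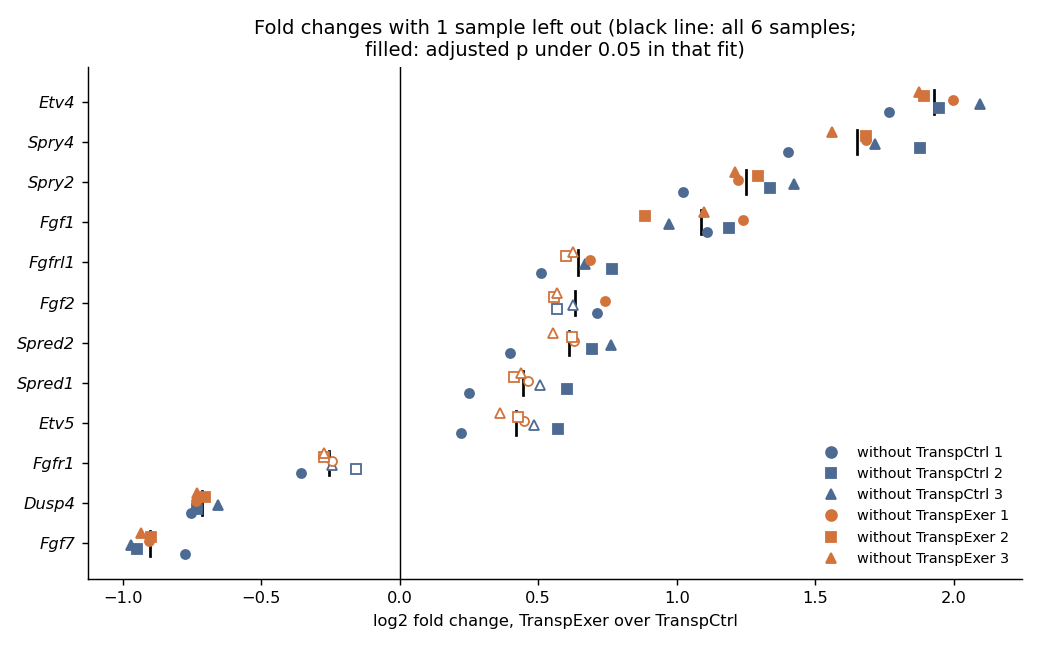
Log2 fold change of TranspExer over TranspCtrl (x axis) for 12 members when each sample was left out in turn. Colour and shape name the sample left out, filled points had an adjusted p-value under 0.05 in that fit (edgeR), and the black line is the value with all 6 samples. *Etv4*, *Spry4*, *Spry2*, *Fgf1*, *Dusp4* and *Fgf7* were filled in all 6 fits, while *Fgf2*, *Fgfrl1* and *Spred2* were not.

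Promoter windows were read for the tested members, to show which carry either of 2 ETS motifs, given below, that factors such as ETV4 can bind. Other letters that ETS factors bind were not searched for, so a member without a match may carry those. A RefSeq window (GRCm38.p6) was found for 17 of the 22 tested members, and *Etv4*, *Spry4*, *Dusp4*, *Fgf1* and *Fgfr1* were not among them. For 13 of the 17 the transcribed end of a window lay in a GENCODE transcript of the gene, and for *Fgfrl1*, *Fgfr2*, *Fgf11* and *Spred1* it did not. The 250 bases before the start site were searched on both strands for CCGGAAGT and for CGGAAG, which lies within it. The longer motif was found for *Fgfrl1*, 48 to 41 bases before the start, and for *Frs2*. It was present for 2 of 17 members, or 11.8%, beside 3.23% of all genes with a window. The shorter one was found for 5 of the 17 members, *Dusp6*, *Fgfrl1*, *Frs2*, *Spred1* and *Spred2*, or 29.4%, beside 15.3% of all genes with a window. The AP-1 motif TGACTCA and the CRE TGACGTCA were found for 0 of 17, beside 5.16% and 1.77% of all genes with a window. The windows below are shown 5′ to 3′ on the gene's strand for a member that rose without a match (*Spry2*), a member that fell (*Fgf7*), a member that rose with a match (*Fgfrl1*) and a feedback gene that did not pass the test (*Dusp6*). Capitals mark the match, which is a description of these letters and not of a bound site.
*Spry2* (minus strand, chr14:105896820-105897069): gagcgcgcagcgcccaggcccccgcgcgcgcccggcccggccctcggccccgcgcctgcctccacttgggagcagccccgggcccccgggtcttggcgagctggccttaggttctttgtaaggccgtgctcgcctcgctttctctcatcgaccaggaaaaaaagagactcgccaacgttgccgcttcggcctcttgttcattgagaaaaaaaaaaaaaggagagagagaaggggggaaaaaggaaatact
*Fgf7* (plus strand, chr2:126034408-126034657): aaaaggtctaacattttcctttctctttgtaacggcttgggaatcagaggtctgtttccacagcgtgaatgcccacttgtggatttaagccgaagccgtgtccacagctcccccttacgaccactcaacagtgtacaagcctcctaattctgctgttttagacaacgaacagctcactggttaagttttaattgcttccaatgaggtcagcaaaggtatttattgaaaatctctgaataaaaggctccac
*Fgfrl1* (plus strand, chr5:108693979-108694228): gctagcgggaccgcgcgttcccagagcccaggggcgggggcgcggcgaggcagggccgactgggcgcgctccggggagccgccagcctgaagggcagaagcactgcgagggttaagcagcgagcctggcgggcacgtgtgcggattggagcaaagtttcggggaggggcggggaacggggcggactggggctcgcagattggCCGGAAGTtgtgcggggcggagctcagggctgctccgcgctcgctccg
*Dusp6* (plus strand, chr10:99262981-99263230): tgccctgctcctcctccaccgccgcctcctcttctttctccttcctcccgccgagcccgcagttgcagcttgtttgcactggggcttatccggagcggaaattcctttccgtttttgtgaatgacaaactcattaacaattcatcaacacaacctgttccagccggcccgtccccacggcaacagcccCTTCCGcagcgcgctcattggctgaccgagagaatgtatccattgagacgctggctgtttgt

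Genes on either side of the FGF set were described from lists written by hand. Of 32 adaptors and kinases of the Ras-ERK and PI3K steps, 27 were higher in TranspExer, beside 7349 of all 15190 tested genes. At the adjusted p-value threshold 7 rose (21.9%, beside 16.6% of all tested genes) and 0 fell (beside 15.5%). The median log2 fold change of the 32 was 0.21. None was a DEG by edgeR or by DESeq2. Their edgeR log2 fold changes ranged from -0.12 to 0.74, so an unadjusted p could not change that. *Pik3cb*, a catalytic subunit of PI3 kinase, and *Grb2*, the adaptor that brings SOS to the receptors, had log2 fold changes of 0.74 and 0.70 (edgeR adjusted p = 0.00053 and 0.00404). *Mapk3*, which encodes ERK1, had one of 0.43 (edgeR adjusted p = 0.00535).

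Of 35 tested genes in a list of other feedback genes and ERK-ETS targets, 12 rose and 5 fell at the adjusted p-value threshold, or 34.3% and 14.3% beside 16.6% and 15.5% of all tested genes. Their median log2 fold change was 0.24. *Egr2*, *Fos* and *Dusp1*, immediate early genes, had log2 fold changes of 0.84, 0.69 and 0.74 (edgeR adjusted p = 0.000602, 0.000683 and 0.000792). Early genes of the list did not all move this way: *Fosl1* rose (0.81, adjusted p = 0.00498), *Ier3* fell, and those that did not pass included *Egr1* (0.06, adjusted p = 0.735), *Junb* (0.08, adjusted p = 0.448), *Ier2* (0.09, adjusted p = 0.36) and *Fosb* (-0.26, adjusted p = 0.355). The downregulated DEGs were *Flrt3*, which encodes a membrane partner of FGF receptors, and *Ier3*, an early response gene. *Flrt3* had 4.79, 5.19 and 5.44 CPM in TranspCtrl and 2.41, 2.44 and 2.24 CPM in TranspExer, a log2 fold change of -1.12 (SE 0.15 and edgeR adjusted p = 0.00149). *Ier3* had one of -1.02 (SE 0.22 and edgeR adjusted p = 0.0105), which was under the fold threshold without TranspCtrl replicate 1 (-0.71) and with replicate numbers fitted as blocks (-0.97), and the call was lost without TranspExer replicate 3 (adjusted p = 0.0561).

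Heparan sulphate holds FGFs at their receptors. Of 26 tested genes for its core proteins and enzymes, 2 rose and 6 fell at the adjusted p-value threshold (7.69% and 23.1%, beside 16.6% and 15.5% of all tested genes) and none was a DEG, and the median log2 fold change was -0.06. Their log2 fold changes ranged from -0.94 to 0.54, so an unadjusted p could not change the DEG count. It was 0 by DESeq2 as well. There was 1 lower DEG with upper-quartile or library-size-only scaling and 2 without TranspCtrl replicate 1. The sulphatases that trim it moved in opposite directions, with log2 fold changes of -0.90 for *Sulf1* and 0.53 for *Sulf2* (edgeR adjusted p = 0.000229 and 0.018), and the call of *Sulf2* was lost without TranspExer replicate 2 or 3 (adjusted p = 0.0692 and 0.0706). Of 13 tested FGF-binding and partner genes, 3 rose and 2 fell, or 23.1% and 15.4%, near the 16.6% and 15.5% of all tested genes (median log2 fold change -0.12).

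Of 22 listed genes of the FGF15 and FGF23 axes, only 8 were tested. At the adjusted p-value threshold 2 rose and 3 fell, or 25% and 37.5% beside 16.6% and 15.5% of all tested genes. Besides the DEGs these were *Galnt3* (0.69, adjusted p = 0.0223), which encodes an enzyme that glycosylates FGF23, *Enpp1* (-0.40, adjusted p = 0.00714) and *Pth1r* (-0.76, adjusted p = 0.0146), the receptor gene for parathyroid hormone. The bile acid genes *Nr1h4*, *Nr0b2*, *Cyp7a1*, *Slc10a1* and *Slc10a2* had at most 5 counts in any sample. *Gpbar1*, a membrane receptor for bile acids, was also left out by the filter, with 0, 0 and 1 counts in the TranspCtrl samples and 11, 10 and 5 in the TranspExer samples. When every gene with at least 1 count was tested, its adjusted p-value from edgeR was 0.00354, and the list then held 2 upregulated DEGs in place of 1. With 1 sample left out the list held 1 to 2, and over the other alternatives 0 to 2. *Fam20c*, the kinase that phosphorylates FGF23 and other secreted proteins, had 94.0, 121 and 125 CPM in TranspCtrl and 229, 233 and 240 CPM in TranspExer. Its log2 fold change was 1.04 (SE 0.12 and edgeR adjusted p = 0.000546), and it was under the fold threshold with upper-quartile scaling (0.97), with scaling by library size only (0.96) and without TranspCtrl replicate 1 (0.92). *Phex*, an endopeptidase gene of osteoblast-lineage cells whose loss raises FGF23, had 1.51, 1.23 and 1.86 CPM in TranspCtrl and 0.628, 0.581 and 0.546 CPM in TranspExer (log2 fold change -1.39, SE 0.28 and edgeR adjusted p = 0.00836).

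Markers of other cells differed between the groups beside these genes. The markers that rose or fell are counted at the adjusted p-value threshold, where 16.6% of all tested genes rose and 15.5% fell. *Cdh5*, which defines endothelium, had 70.2 ± 17.7 CPM in TranspCtrl and 284 ± 23.1 CPM in TranspExer (SD, n = 3), a log2 fold change of 2.02 (edgeR adjusted p = 0.00023). The summed levels of 6 B and plasma cell markers were 3486 to 5892 CPM in TranspCtrl and 751 to 798 CPM in TranspExer, and 5 of the 6 fell. Of 7 macrophage markers, 1 rose and 2 fell, with a summed 8205 to 12453 CPM against 6300 to 6749 CPM. Without *Lyz2*, which had the highest level among them, the sum of the other 6 was 3206 to 3351 CPM in TranspCtrl and 3514 to 3704 CPM in TranspExer. Of 7 neutrophil markers, 3 rose and 1 fell, with a summed 2645 to 3692 CPM against 4882 to 5115 CPM. Those that rose were *Mpo*, *Elane* and *Ngp* (log2 fold changes of 2.47, 2.16 and 0.53), and *Ly6g* fell (-0.54). *S100a8* (-0.17), *S100a9* (-0.07) and *Camp* (0.31) did not pass the test. Of 5 adipocyte markers, 4 rose, from a summed 834 to 987 CPM to 2630 to 3071 CPM. *Adipoq* did not pass the test, with 0.813 ± 0.0287 CPM in TranspCtrl and 1.02 ± 0.243 CPM in TranspExer (SD, n = 3). *Plin1* had 0, 0 and 3 counts in the TranspCtrl samples and 25, 34 and 31 in the TranspExer samples. Without *Lpl*, the sum of the other 4 was 72.7 to 130 CPM in TranspCtrl and 164 to 186 CPM in TranspExer. Of 5 pericyte and smooth muscle markers, 3 rose and 2 fell, with a summed 2394 to 2838 CPM against 1627 to 1833 CPM. Without *Acta2* and *Tagln*, which fell, the sum of the other 3 was 8.51 to 11.9 CPM in TranspCtrl and 37.8 to 39.5 CPM in TranspExer. Of 4 tested osteoblast markers, 3 fell, the summed level of all 6 was 171 to 227 CPM against 110 to 115 CPM, and *Bglap* had at most 1 count. *Dmp1*, also untested, had 6, 2 and 7 counts in the TranspCtrl samples and 10, 16 and 13 in the TranspExer samples. The part of these markers in the changes of *Etv4*, *Spry4*, *Spry2*, *Fgf1*, *Fgf7* and the other members was not tested.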

How the data were processed

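MSCs of 3 TranspCtrl and 3 TranspExer samples, grouped by the sample labels, were compared. The authors assigned mapped reads to genes and left the resulting estimated counts as deposited, with no normalization. Of these values 10.1% to 12.2% were not whole, and they were rounded here. The labels name the mm10 build and a stranded mRNA kit, and the methods a TruSeq kit. The aligner and counting tool were not given in the sources used here. Positions and overlaps came from GENCODE M21 (GRCm38), in which all 42 members were found. Counts of 3, the floor, equalled 0.139 to 0.174 CPM (counting error only).

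Tests used edgeR 4.0.16 in R 4.3.3 (filterByExpr, TMM, quasi-likelihood test on group alone), p-values were adjusted by Benjamini-Hochberg over 15190 genes, and the DEG thresholds of the methods (adjusted p of 0.05, fold change of 2). For 1 gene with 3 samples a group, the smallest two-sided p of an exact permutation test is 0.1. CPM values used TMM-scaled library sizes, and the SE was the log2 fold change divided by the root of F. TPM values used the lengths listed in the file. The tests were checked on simulated counts with the same dispersion for every gene and no deviating sample. That check therefore does not cover a sample such as TranspCtrl replicate 1. Alternatives were DESeq2 1.42.0, upper-quartile scaling, library size only, filters of at least 1 count and of 1 CPM in 3 samples, a test against a 2-fold change inside the model, the replicate number as a block, and each sample left out.

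The members and gene lists were chosen with earlier results of these data known. Every member was accounted for. From each other list, at most 4 DEGs were to be named, by adjusted p-value, and *Pik3cb*, *Grb2*, *Mapk3*, *Egr2*, *Fos*, *Dusp1*, *Sulf1*, *Sulf2*, *Pdgfra*, *Ptprc*, *Cdh5*, *Ctbp2*, *Nudt6*, *Fosl1*, *Egr1*, *Junb*, *Ier2*, *Fosb*, *Lyz2*, *Acta2*, *Tagln*, *Lpl*, *Bglap*, *Dmp1*, *Galnt3*, *Enpp1*, *Pth1r* and the bile acid genes were named outside this rule, after their values were seen. The same holds for *Col1a1*, *Col1a2*, *Mpo*, *Elane*, *Ngp*, *Ly6g*, *S100a8*, *S100a9*, *Camp*, *Adipoq* and *Plin1*.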

Additional observations from a re-analysis of the deposited data

How the results depend on the processing

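Members past both thresholds and higher in TranspExer numbered 4 under every alternative except the test against a 2-fold change inside the model, which left 1 (*Etv4*), and the fits with 1 sample left out, which gave 3 to 4. Those lower numbered 0 in the main analysis, 1 (*Fgf21*) when every gene with at least 1 count was tested, and 0 to 1 with 1 sample left out. At the adjusted p-value alone, 7 were higher. That count was 1 with the test against a 2-fold change inside the model, beside 0.908% of all tested genes. With 1 sample left out it was 4 to 9, with 4 without TranspExer replicate 2 or 3, beside 8.42% to 22.1% of all genes tested in those fits. The 2 that were lower became 4 with upper-quartile scaling and with library size only, beside 19.1% and 19.5% of all tested genes. They became 0 with the test against a 2-fold change inside the model (beside 1.8%), and 2 to 3 with 1 sample left out (beside 8.48% to 19.6%). No fold change of a member past the threshold turned its direction under any alternative run. The DEGs of the list of other feedback genes numbered 2, and were 1 with the block, 0 with the test against a 2-fold change and 1 to 2 with 1 sample left out. With the replicate number as a block, 9 members were higher and 2 lower at the adjusted p-value threshold, and 4 and 0 past both thresholds, where 16.4% and 14.6% of all tested genes were higher and lower at the adjusted p-value threshold. Samples with the same number did not deviate together (correlations of 0.0247, -0.00167 and 0.0416 for numbers 1, 2 and 3), and not every sample correlated best with its own number, so the numbers were not taken as pairs. The filter left 20 of the 42 members untested, and for those with a handful of counts only large differences could be seen. Where a result changed with a setting, the cause was not tested.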
